A study of Mus musculus with 12 samples.

Results

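Translation initiation factors were followed across 4 genotypes of young mouse bone marrow cells. The members were the genes whose probe sets carry a single gene symbol beginning with Eif1 to Eif6 in the platform annotation, without the eIF2 kinases (Eif2ak genes), the elongation factor Eif5a and the sex-linked Eif2s3x and Eif2s3y. This rule found 40 of the 18194 genes with a single symbol, on 113 of 45101 probe sets, and the probe set of highest mean stood for its gene. The test took genes with log2 intensity above 4 on 3 or more of the 12 arrays, which kept 39 members among 10287 genes. The member left out was Eif4a3, an RNA helicase of the exon junction complex, which lay below log2 4 on every array. Genes whose probe sets carry several symbols, such as Eif3j1 and Eif3j2, were not members, and Eif4g1, Eif2s1 and Eif4ebp3 were not used here.

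The tissue was bone marrow of littermates 4 to 6 weeks old on a background that is 94% C57BL/6, from which cells carrying the B-lineage surface marker B220 (CD45R) were pulled out on magnetic beads. There were 4 groups of 3 arrays, each labelled a biological replicate. The MycTTP group carried Eμ-Myc and Eµ-TTP-1 and was labelled precancerous, the Myc group carried Eμ-Myc alone and was also labelled precancerous, the TTP group carried Eµ-TTP-1 alone, and the wild-type group carried neither transgene. Both transgenes use the immunoglobulin heavy chain enhancer (Eµ), which drives expression in B cells. Tristetraprolin (TTP), the product of Zfp36, binds AU-rich elements of mRNAs and promotes their decay. The values are intensities of Affymetrix MOE430 2.0 arrays. A probe set's level was compared only with the same probe set on other arrays, and the number of arrays limits the precision.

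Initiation factors bring an mRNA, the small ribosomal subunit and the initiator tRNA together and then let the large subunit join. eIF4F, made of the cap-binding protein eIF4E, the scaffold eIF4G and the helicase eIF4A, loads the mRNA, while eIF2 carries the initiator tRNA and is recharged with GTP by eIF2B. eIF3 is the largest of the factors and holds the small subunit ready, eIF1 and eIF1A govern scanning and start codon choice, eIF5 and eIF5B act at the end, and the 4E-binding proteins block eIF4E until mTOR phosphorylates them. Myc is a transcription factor known for raising the expression of genes for ribosomes and translation, and Eif4e is a textbook example of its targets.

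Some arrays stood apart from their labels, which touches every comparison here. Myc intensity was 3617, 6801 and 10551 on the MycTTP arrays, 13361, 15451 and 8163 on the Myc arrays, 1060, 1343 and 11360 on the TTP arrays, and 805, 819 and 6411 on the wild-type arrays, so the arrays labelled TTP 3 and wild type 3 held Myc signal in the range of the Myc groups. On the arrays labelled MycTTP 3, TTP 3 and wild type 3, both Xist and the Y-linked Kdm5d were above the floor of log2 4. Myc 1 had intensities of 4 for Xist and 641 for Kdm5d. Myc 2 and Myc 3 had 11977 and 13145 for Xist and 6 each for Kdm5d. Sex signal thus differed within groups, and Eif1ax, which stayed a member, is on chromosome X. Zfp36 intensity was 177, 393 and 579 on the MycTTP arrays, 623, 647 and 1022 on the Myc arrays, 939, 952 and 878 on the TTP arrays and 1663, 892 and 918 on the wild-type arrays, so this probe set did not show more Zfp36 under either TTP label, and whether it reads the transgene was not tested. The 9 measured B-lineage markers of 10 were high on all arrays, with a mean log2 intensity of 12.14 to 13.46, and granulocyte markers were high as well on most. The counts on the average Myc difference are therefore given with and without TTP 3 and wild type 3, which were singled out with earlier results of these data known.

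Averaged over both TTP states, part of the initiation factor genes were higher in the cells labelled Myc, though 0 of 39 passed in either state alone. The average Myc difference is the mean of Myc over wild type and of MycTTP over TTP, tested with limma at an adjusted p under 0.05. By this measure 21 of 39 members rose and 0 fell, against a background of 18.7% of all tested genes called higher and 24.6% called lower. The median of the members was 0.34 on the log2 scale, against -0.06 over all genes tested. The called members rose by 0.27 to 1.26, and 11 of them by 0.5 or more. Of the 18 members that did not pass, 11 had positive and 7 had negative differences. The count of called members was 12 without wild type 2 and 13 without Myc 1, settings for which no share of all genes is given. In bulk samples, fewer cells of a type and less RNA per cell cannot be told apart.

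**Figure D1:**
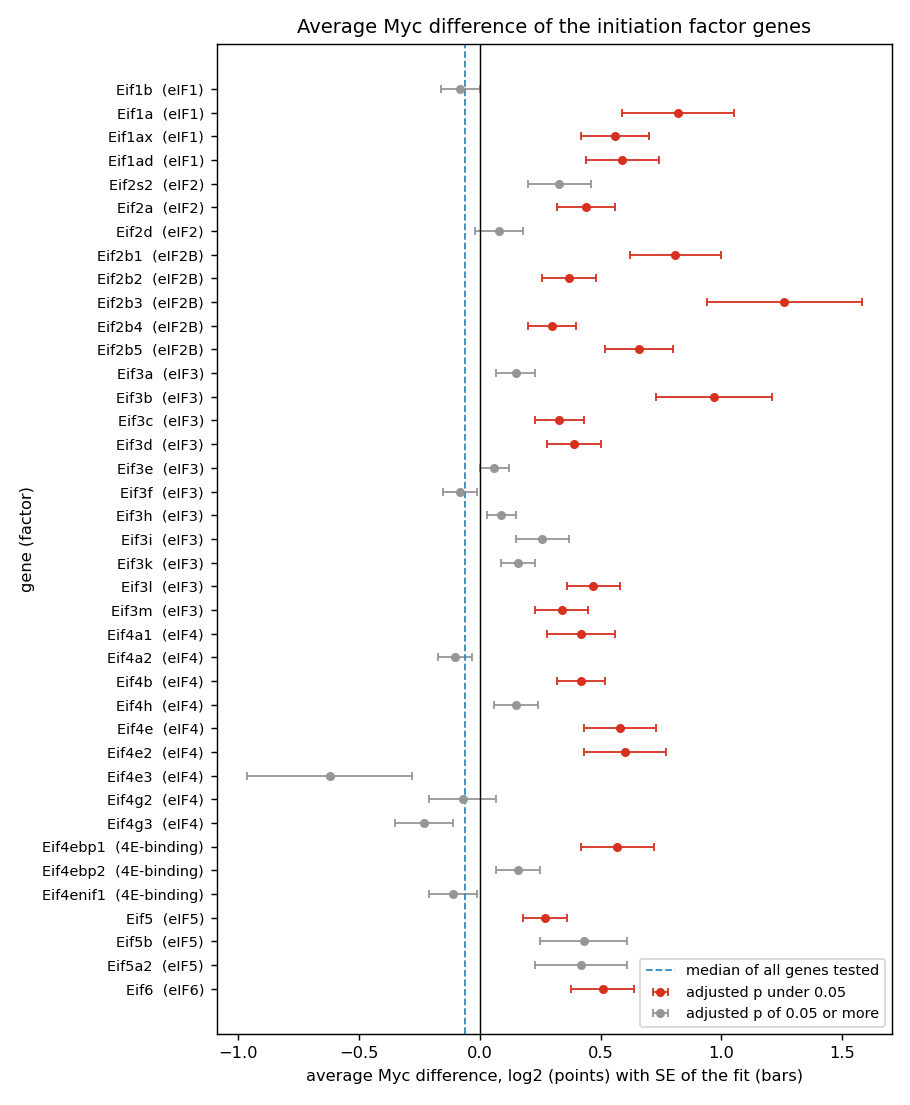
Average Myc difference of each of the 39 tested genes on the log2 scale (horizontal axis, point and SE of the fit), by gene and factor (vertical axis), with called genes in red and the median of all genes tested as a dashed line. All 21 called genes lie to the right of 0, all 5 eIF2B genes among them, while Eif4e3 has the lowest value.

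All 5 genes of eIF2B, the factor that exchanges GDP for GTP on eIF2 and that phosphorylated eIF2 inhibits, rose in the average Myc difference. Eif2b5 encodes the epsilon subunit, which holds the catalytic site. Its log2 intensities, in the order of array number, were 11.84, 11.85 and 11.64 on the MycTTP arrays, 11.50, 11.45 and 11.10 on the Myc arrays, 10.62, 10.69 and 11.18 on the TTP arrays and 10.75, 10.82 and 11.39 on the wild-type arrays. The MycTTP arrays lay above all other arrays, and the Myc arrays overlapped with wild type 3 and TTP 3. Its average Myc difference was 0.66 ± 0.14 (SE), a fold of 1.58, with an adjusted p of 0.0169. Eif2b1 encodes the alpha subunit, one of the regulatory subunits. It measured 9.83, 9.63 and 9.84 on the MycTTP arrays, 9.48, 9.76 and 9.14 on the Myc arrays, 8.47, 8.58 and 9.29 on the TTP arrays and 8.48, 8.68 and 9.30 on the wild-type arrays. All MycTTP values again lay above the TTP and wild-type values, and the lowest Myc array lay below wild type 3. Eif2b1 rose by 0.81 ± 0.19 (adjusted p 0.0169). Eif2b4 encodes the delta subunit and measured 11.15, 11.10 and 11.11 on the MycTTP arrays, 10.80, 10.69 and 10.49 on the Myc arrays, 10.43, 10.60 and 10.83 on the TTP arrays and 10.49, 10.45 and 10.75 on the wild-type arrays. Its 3 MycTTP arrays lay above every other array, while Myc overlapped with both groups without the Myc transgene. It rose by 0.30 ± 0.10 (adjusted p 0.0297). The other two were Eif2b3, for the gamma subunit, with the highest value of any member at 1.26 ± 0.32, and Eif2b2, for the beta subunit, at 0.37 ± 0.11. Eif2b3 and the further members named below by difference and error alone were picked after their values were seen.

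The genes of eIF2 itself and its tRNA-binding relatives moved less uniformly, with 1 of 3 called. Eif2a, an initiator tRNA-binding protein that is not a subunit of eIF2, rose by 0.44 ± 0.12 (adjusted p 0.0176). Eif2s2, for the beta subunit of eIF2, had a difference of 0.33 ± 0.13 and did not pass (adjusted p 0.063). Eif2d, for a factor that places tRNA on the small subunit outside the eIF2 pathway, measured 10.91, 10.70 and 10.55 on the MycTTP arrays, 10.19, 10.39 and 10.07 on the Myc arrays, 10.45, 10.42 and 10.27 on the TTP arrays and 10.24, 10.29 and 10.63 on the wild-type arrays. The MycTTP arrays lay above the Myc arrays, and wild type 3 lay between MycTTP 3 and MycTTP 2. Its average Myc difference was 0.08 ± 0.10 and did not pass (adjusted p 0.521).

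Of the eIF1 group, 3 of 4 genes rose. Eif1ax encodes eIF1A, which with eIF1 keeps the scanning ribosome open. It measured 12.74, 12.79 and 12.95 on the MycTTP arrays, 13, 12.87 and 12.69 on the Myc arrays, 12.25, 12.26 and 12.54 on the TTP arrays and 11.85, 12.03 and 12.77 on the wild-type arrays. Every Myc-labelled array except Myc 3 and MycTTP 1 lay above wild type 3, the highest array of the other groups. Eif1ax rose by 0.56 ± 0.14 (adjusted p 0.0171). Eif1ad, for a protein with an eIF1A domain, measured 11.16, 11.05 and 10.92 on the MycTTP arrays, 11.12, 10.82 and 10.48 on the Myc arrays, 10.26, 10.19 and 10.58 on the TTP arrays and 10.08, 10.16 and 10.73 on the wild-type arrays. Its MycTTP values were higher than all TTP and wild-type values, and Myc 3 was lower than wild type 3 and TTP 3. It rose by 0.59 ± 0.15 (adjusted p 0.0169). The close relative of Eif1ax named Eif1a rose by 0.82 ± 0.23. Eif1b, for a paralogue of eIF1, measured 11.54, 11.37 and 11.44 on the MycTTP arrays, 11.03, 11.40 and 11.28 on the Myc arrays, 11.36, 11.39 and 11.34 on the TTP arrays and 11.49, 11.52 and 11.45 on the wild-type arrays. The wild-type arrays lay above the TTP and Myc arrays and overlapped with MycTTP. For Eif1b the average Myc difference was -0.08 ± 0.08 and did not pass (adjusted p 0.396).

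In eIF3, 5 of 11 genes rose, and the subunits were not alike. Eif3b, for a subunit outside the octamer core, changed most. Eif3b measured 11.31, 11.47 and 11.67 on the MycTTP arrays, 11.49, 11.49 and 10.82 on the Myc arrays, 10.26, 10.25 and 11.11 on the TTP arrays and 9.69, 10.17 and 10.96 on the wild-type arrays. All MycTTP arrays lay above all TTP and wild-type arrays, and Myc 3 lay below wild type 3 and TTP 3. Eif3b rose by 0.97 ± 0.24, a fold of 1.95 (adjusted p 0.0169). Eif3l, for a subunit of the octamer core, measured 13.66, 13.52 and 13.48 on the MycTTP arrays, 13.39, 13.46 and 13.13 on the Myc arrays, 12.76, 12.94 and 13.17 on the TTP arrays and 12.83, 12.81 and 13.32 on the wild-type arrays. The MycTTP arrays were higher than the TTP and wild-type arrays, and wild type 3 reached the middle of the Myc arrays. It rose by 0.47 ± 0.11 (adjusted p 0.0169). The other called subunit genes were Eif3d at 0.39 ± 0.11, Eif3m at 0.34 ± 0.11 and Eif3c at 0.33 ± 0.10.

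Eif3a, for the large subunit that ties the octamer together, did not pass. It measured 14.60, 14.48 and 14.50 on the MycTTP arrays, 14.45, 14.38 and 14.28 on the Myc arrays, 14.21, 14.35 and 14.24 on the TTP arrays and 14.23, 14.12 and 14.62 on the wild-type arrays, so wild type 3 was the highest of the 12 arrays. For Eif3a the average Myc difference was 0.15 ± 0.08 (adjusted p 0.16). The 3 other Eif3a probe sets, all above the floor on 12 arrays and of lower level, had 0.27, 0.66 and 0.54, and with the one of largest SD (0.66) the adjusted p was 0.0539. Eif3e measured 14.79, 14.62 and 14.75 on the MycTTP arrays, 14.33, 14.54 and 14.50 on the Myc arrays, 14.51, 14.60 and 14.50 on the TTP arrays and 14.46, 14.54 and 14.57 on the wild-type arrays, and Eif3h measured 14.29, 14.15 and 14.24 on the MycTTP arrays, 13.91, 14.10 and 13.99 on the Myc arrays, 14.08, 13.93 and 13.97 on the TTP arrays and 13.99, 14.05 and 14.09 on the wild-type arrays. For both genes the MycTTP arrays lay above the Myc arrays and all other values fell in a narrow band. Their average Myc differences were 0.06 ± 0.06 for Eif3e and 0.09 ± 0.06 for Eif3h, neither of which passed. The 8 octamer genes measured (a, c, e, f, h, k, l and m) had a median difference of 0.16 with 3 called, and the 3 others (b, d and i) a median of 0.39 with 2 called. These medians use the chosen probe sets, that of Eif3a included, and this contrast of modules was not tested. A second probe set of Eif3i, of lower level, had 0.58, against 0.26 for the chosen one. Without TTP 3 and wild type 3, Eif3a, Eif3i and Eif3k were called higher as well. Eif3g was not among the members.

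In the eIF4 group, 4 of 9 tested genes rose, among them the cap-binding and helicase subunits of eIF4F. Eif4e measured 12.69, 12.78 and 12.88 on the MycTTP arrays, 12.82, 12.63 and 12.25 on the Myc arrays, 11.83, 12.11 and 12.47 on the TTP arrays and 11.77, 11.94 and 12.43 on the wild-type arrays. All MycTTP arrays lay above all TTP and wild-type arrays, and Myc 3 lay below wild type 3 and TTP 3. Eif4e rose by 0.58 ± 0.15, a fold of 1.49 (adjusted p 0.017). Eif4a1, the main helicase gene, measured 14.74, 14.72 and 14.65 on the MycTTP arrays, 14.68, 14.52 and 14.34 on the Myc arrays, 13.99, 14.14 and 14.50 on the TTP arrays and 13.88, 13.96 and 14.65 on the wild-type arrays. Wild type 3 and TTP 3 stood within the range of the Myc-labelled arrays, and the remaining 4 arrays without the transgene lay below all 6 of them. It rose by 0.42 ± 0.14 (adjusted p 0.0324). Eif4b, for a cofactor of the helicase, measured 13.01, 12.87 and 13.01 on the MycTTP arrays, 12.55, 12.70 and 12.51 on the Myc arrays, 12.24, 12.33 and 12.59 on the TTP arrays and 12.07, 12.29 and 12.64 on the wild-type arrays. MycTTP stood above the other 3 groups, and Myc overlapped with wild type 3 and TTP 3. Eif4b rose by 0.42 ± 0.10 (adjusted p 0.0169). Eif4e2, for a cap-binding protein that does not join eIF4G, rose by 0.60 ± 0.17.

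Eif4a2, for a second helicase closely related to Eif4a1, was not called. It measured 13.41, 13.25 and 13.30 on the MycTTP arrays, 13.42, 13.47 and 13.43 on the Myc arrays, 13.33, 13.57 and 13.26 on the TTP arrays and 13.63, 13.54 and 13.56 on the wild-type arrays, with wild type above MycTTP and Myc and a span of under 1 log2 unit over all 12 arrays. Its average Myc difference was -0.10 ± 0.07 (adjusted p 0.212). Within each array, the log2 intensity of Eif4a1 minus that of Eif4a2 averaged 1.38 ± 0.07 on MycTTP, 1.07 ± 0.18 on Myc, 0.82 ± 0.37 on TTP and 0.59 ± 0.44 on wild-type arrays (SD, n = 3 each). These differences show how the gap between the probe sets moved, not which gene is more abundant, and 4 of the 6 Myc-labelled arrays lay above all 6 others. The change in this gap was not tested. The other eIF4 genes that did not pass were Eif4h at 0.15 ± 0.09, Eif4g2 at -0.07 ± 0.14, Eif4g3 at -0.23 ± 0.12 and Eif4e3 at -0.62 ± 0.34. Eif4e3, for a further cap-binding relative, had the widest spread, with 9.88, 9.34 and 8.44 on the MycTTP arrays, 8.47, 7.95 and 8.60 on the Myc arrays, 10.05, 10.02 and 8.27 on the TTP arrays and 9.58, 9.58 and 8.89 on the wild-type arrays. The arrays numbered 3 were low for Eif4e3 in the MycTTP, TTP and wild-type groups.

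**Figure D2:**
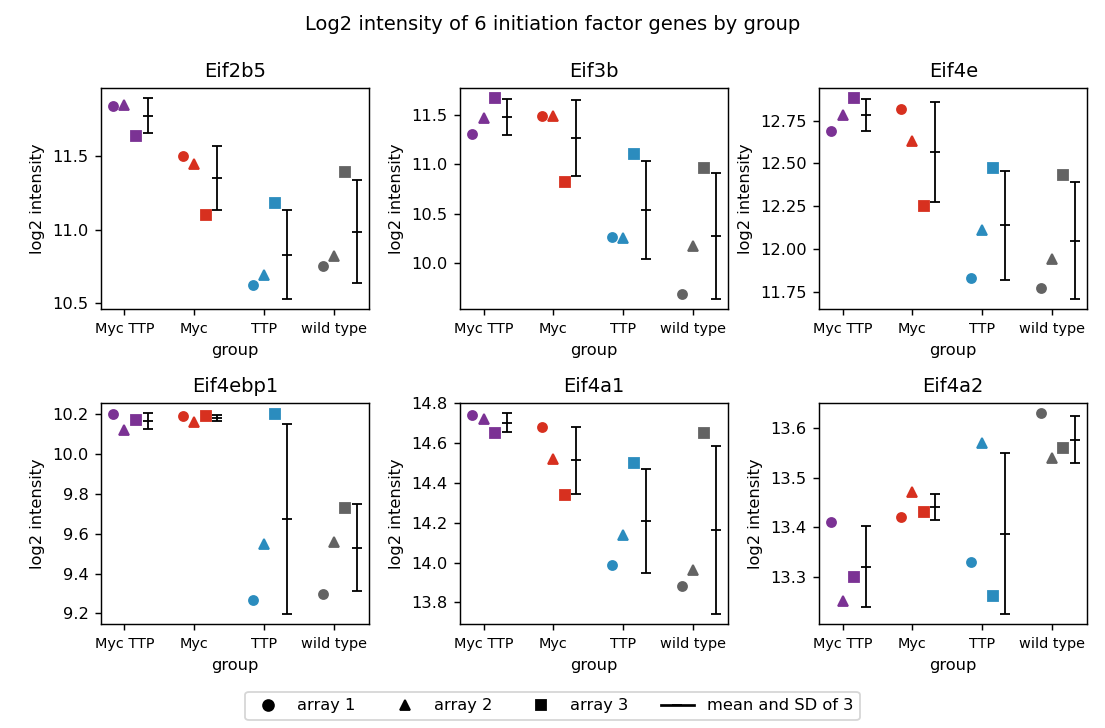
Log2 intensity (vertical axis) of 6 genes by group (horizontal axis), one marker shape per array number, with the mean and SD of 3 arrays as bars. For Eif2b5, Eif3b, Eif4e, Eif4ebp1 and Eif4a1 the square of array 3 is the highest in the TTP and wild-type groups, and for Eif4a2 the wild-type arrays lie above the MycTTP and Myc arrays.

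Among the 4E-binding proteins, which hold eIF4E away from eIF4G, 1 of 3 genes rose. Eif4ebp1 measured 10.20, 10.12 and 10.17 on the MycTTP arrays, 10.19, 10.16 and 10.19 on the Myc arrays, 9.27, 9.55 and 10.20 on the TTP arrays and 9.30, 9.56 and 9.73 on the wild-type arrays. The 6 Myc-labelled arrays spanned under 0.1 log2 units, and TTP 3 reached their level while wild type 3 did not. Eif4ebp1 rose by 0.57 ± 0.15, a fold of 1.49 (adjusted p 0.017). Eif4ebp2 measured 12.21, 12.03 and 11.98 on the MycTTP arrays, 12.04, 11.89 and 11.72 on the Myc arrays, 11.84, 11.84 and 11.80 on the TTP arrays and 11.71, 11.68 and 12.01 on the wild-type arrays, with all groups overlapping but MycTTP above TTP. Its difference was 0.16 ± 0.09 and did not pass (adjusted p 0.141). Eif4enif1, for the eIF4E transporter 4E-T, measured 12.10, 11.86 and 11.74 on the MycTTP arrays, 11.52, 11.68 and 11.61 on the Myc arrays, 11.91, 11.95 and 11.51 on the TTP arrays and 11.97, 11.99 and 11.83 on the wild-type arrays. Myc arrays lay below wild-type arrays, and MycTTP arrays overlapped with TTP. For Eif4enif1 the average was -0.11 ± 0.10 (adjusted p 0.387). The gap between Eif4e and Eif4ebp1 within arrays averaged 2.61 ± 0.12 on MycTTP, 2.39 ± 0.29 on Myc, 2.47 ± 0.17 on TTP and 2.52 ± 0.17 on wild-type arrays (SD, n = 3 each), and the 4 groups overlapped.

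Of the late factors, Eif5 and Eif6 rose. Eif5, whose product triggers GTP hydrolysis by eIF2 at the start codon, measured 13.65, 13.47 and 13.38 on the MycTTP arrays, 13.33, 13.33 and 13.07 on the Myc arrays, 12.99, 13.13 and 13.14 on the TTP arrays and 12.97, 13.05 and 13.32 on the wild-type arrays. MycTTP arrays were above all other arrays, with Myc within reach of wild type 3. Eif5 rose by 0.27 ± 0.09, the smallest called difference (adjusted p 0.0278). Eif6, for the factor that keeps the large subunit from joining too early, measured 12.37, 12.16 and 12.34 on the MycTTP arrays, 12.04, 11.95 and 11.72 on the Myc arrays, 11.35, 11.49 and 11.91 on the TTP arrays and 11.38, 11.47 and 11.93 on the wild-type arrays. MycTTP lay above every other array, and wild type 3 and TTP 3 lay above Myc 3. Eif6 rose by 0.51 ± 0.13, a fold of 1.42 (adjusted p 0.0169). Eif5b, for the GTPase of subunit joining, measured 11.23, 11.62 and 11.12 on the MycTTP arrays, 11.42, 11.08 and 10.69 on the Myc arrays, 10.74, 10.71 and 11.10 on the TTP arrays and 10.33, 10.46 and 11.24 on the wild-type arrays. Its MycTTP arrays lay above all TTP arrays, wild type 3 lay within the range of MycTTP, and Myc overlapped with every other group. For Eif5b the average was 0.43 ± 0.18 and did not pass (adjusted p 0.075), nor did Eif5a2, a relative of the elongation factor eIF5A, at 0.42 ± 0.19.

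**Figure D3:**
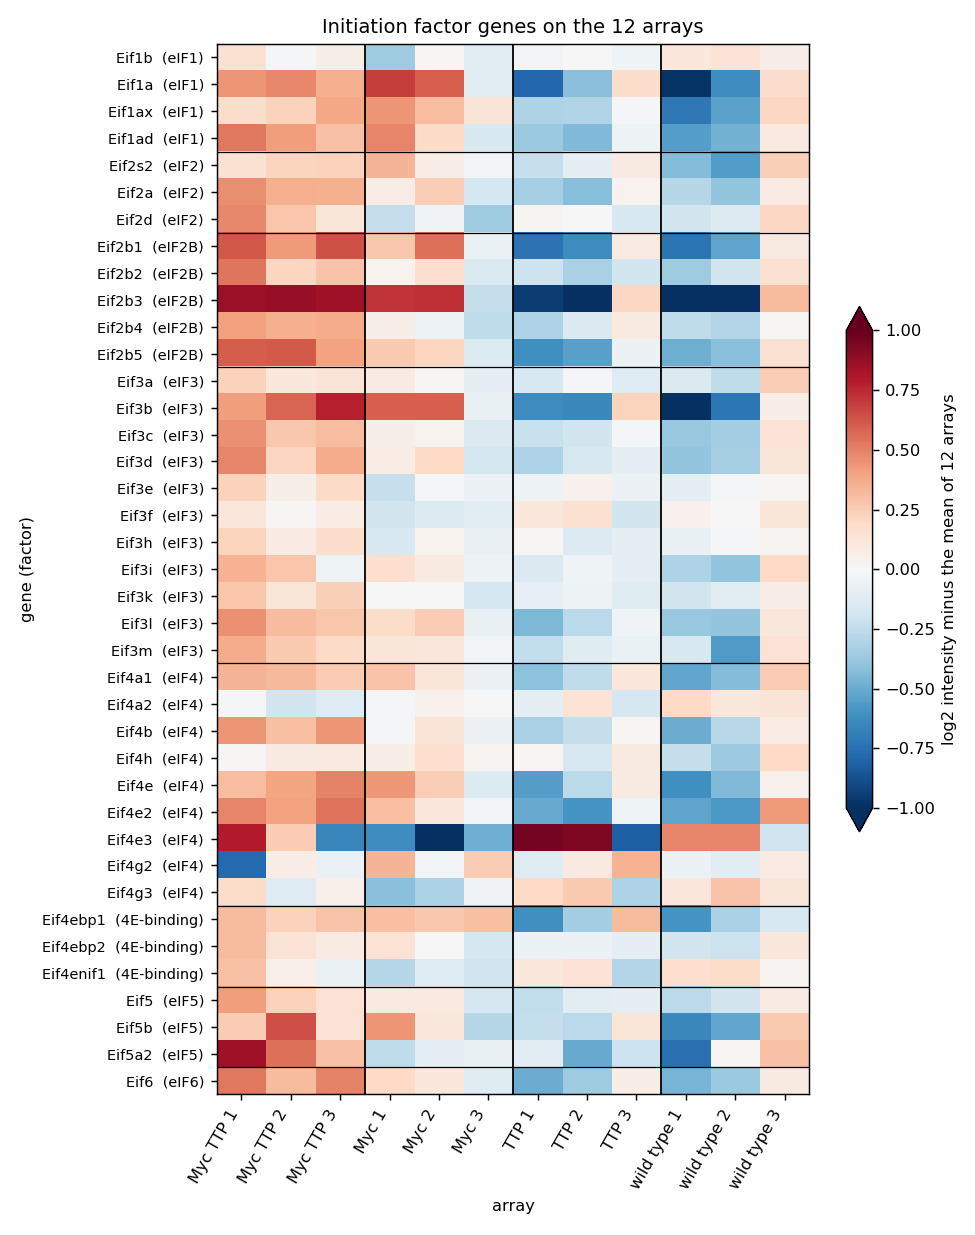
Log2 intensity of each of the 39 tested genes (rows, by factor) on each of the 12 arrays (columns) minus the mean of that gene over all arrays, as colour from blue (low) to red (high), cut off at 1 in either direction. The MycTTP columns are mostly red, wild type 1 and 2 and TTP 1 and 2 are mostly blue, and the column of wild type 3 is mostly pale red.

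The arrays numbered 3 often stood at one end of the wild-type, TTP and Myc groups. Wild type 3 was the highest of the wild-type arrays for 34 of 39 members and for all 21 called ones, against 41% of all genes tested. TTP 3 was the highest TTP array for 25 members and for all 21 called ones, and for 4 of the 18 members not called, against 25.2% of all genes. Myc 3 was the lowest Myc array for 28 members and for 20 of the called ones, against 41.9% of all genes. In the MycTTP group it was array 1 that was the highest for 26 members, against 68.1% of all genes. Averaged over the members and set against the wild-type mean, the level was 0.52, 0.44 and 0.41 on the MycTTP arrays, 0.28, 0.27 and 0.07 on the Myc arrays, -0.08, -0.02 and 0.13 on the TTP arrays and -0.18, -0.11 and 0.30 on the wild-type arrays. The array labelled wild type 3 thus lay above all 3 Myc arrays in this average. For 0 of 39 members did all 6 Myc-labelled arrays lie above the other 6 (0.758% of all genes). Against wild type 1, wild type 2, TTP 1 and TTP 2 alone they did so for 19 members, 18 of them called, where 15.1% of all genes did.

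The average was split into its 2 parts, which share no arrays. In Myc over wild type, 0 of 39 members passed in limma, where 0.467% of all genes were called higher and 10.6% lower. The members' median was 0.24, against -0.21 over all genes, and 11 had an unadjusted p under 0.05, 8 of them higher and 3 lower, where 7.99% of all genes were higher and 33% lower by that measure. Eif4ebp1 came nearest with 0.65 ± 0.21 (adjusted p 0.0566), followed by Eif1ax with 0.63 ± 0.20 (adjusted p 0.058) and Eif3b with 0.99 ± 0.33 (adjusted p 0.0628). Eif4ebp1 was the 1 member whose 3 Myc arrays all lay above wild type (3.49% of all genes did). In 6 members the Myc arrays all lay below wild type, as they did in 41.3% of all genes.

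In MycTTP over TTP, 0 members passed in limma and 0% of all genes did. The median of the members was 0.48, against 0.09 over all genes, and all 25 members with an unadjusted p under 0.05 were higher, where 26.1% of all genes were higher and 9.89% lower by that measure. In 30 of 39 members all MycTTP arrays lay above all TTP arrays, against 30.6% of all genes. Eif2b5 had a difference of 0.95 ± 0.20, Eif6 of 0.71 ± 0.18 and Eif4b of 0.58 ± 0.15, each with an adjusted p of 0.0607, which was the smallest of the members. In 0 members were the arrays separated upwards in both comparisons, as in 1.48% of all genes. Relative to the median of all genes, the members stood 0.45 higher in Myc over wild type and 0.39 higher in MycTTP over TTP. The difference was positive in both for 29 members (74.4%), against 31.9% of all genes, and larger in MycTTP over TTP for 82.1% of members and 84.5% of all genes.

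**Figure D4:**
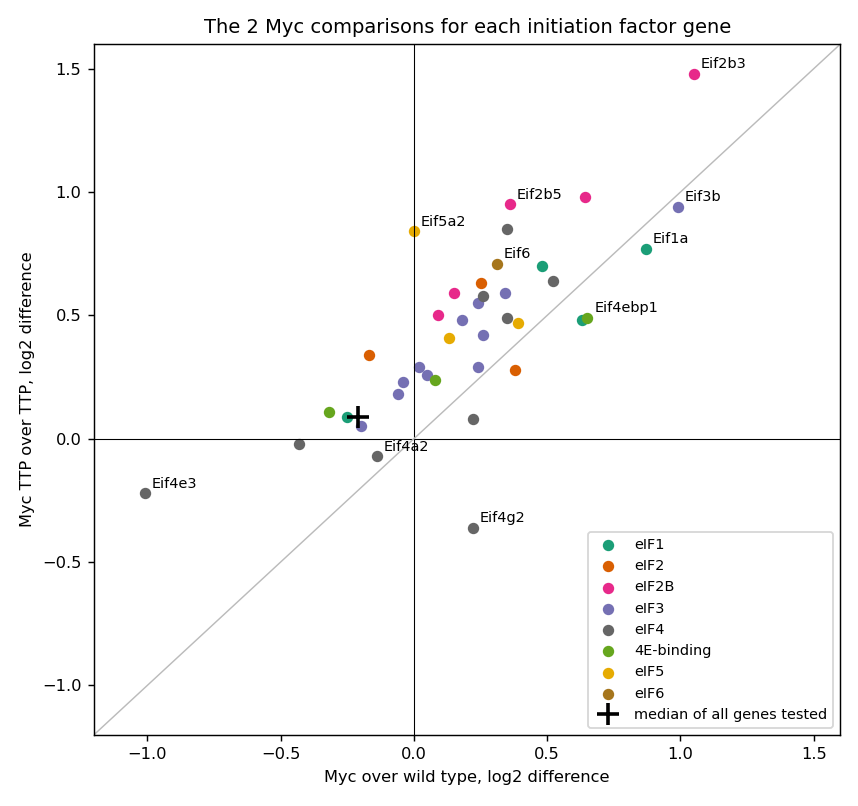
Log2 difference of each of the 39 tested genes in Myc over wild type (horizontal axis) and in MycTTP over TTP (vertical axis), coloured by factor, with the line of equal values and a cross at the median of all genes tested (-0.21 and 0.09). There are 29 genes with positive values on both axes, Eif2b3 farthest out.

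With TTP 3 and wild type 3 left out together, both comparisons had called members. In Myc over wild type 22 members rose and 3 fell, where 14% of all genes were called higher and 34.3% lower. In MycTTP over TTP 25 rose and 0 fell, where 21% of all genes were called higher. There were 20 members that rose in both, a count given without its share of all genes. In that fit Eif4e rose by 0.71 ± 0.16 in Myc over wild type and by 0.81 ± 0.16 in MycTTP over TTP, and Eif4ebp1 by 0.75 ± 0.13 and 0.76 ± 0.13. The 3 members that fell in Myc over wild type were Eif4e3 at -1.24 ± 0.36, Eif4g3 at -0.46 ± 0.14 and Eif4enif1. The averaged comparison then had 29 members higher, all 21 called ones included, and 2 lower, Eif4e3 and Eif4g3, against 24.1% and 37% of all genes. Eif1b, Eif2d, Eif3e, Eif3f, Eif3h, Eif4a2, Eif4enif1 and Eif4g2 passed in neither direction. Counting both directions, leaving out wild type 3 alone gave 20 called members in Myc over wild type and 22 in MycTTP over TTP. Leaving out TTP 3 alone gave 8 and 20, and leaving out Myc 3 alone gave 3 and 0. Wild type 3 does not enter MycTTP over TTP, so leaving it out changed only the spread shared by the groups there, not the differences. Shares of all genes are not given for these settings. With both arrays left out, the all-gene shares in Myc over wild type had moved from 0.467% to 14% higher and from 10.6% to 34.3% lower. These counts are therefore not a result about the members alone.

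Markers of other bone marrow cells moved with the Myc label. In the average Myc difference, all 11 tested granulocyte markers of 12 fell, as did 5 of 6 erythroid, 7 of 7 monocyte and macrophage, 5 of 5 plasmacytoid dendritic, 5 of 5 NK and T and 8 of 9 B-lineage markers, where 24.6% of all genes did. Without TTP 3 and wild type 3, all tested markers of these 6 lists fell, where 37% of all genes did. The mean log2 intensity of the granulocyte list was 11.19 to 12.31 on MycTTP, 6.99 to 12.64 on Myc, 12.28 to 14.09 on TTP and 12.91 to 13.75 on wild-type arrays. On Myc 3, the array with the lowest member level of its group, it was 12.64, against 6.99 on Myc 1 and 8.47 on Myc 2. None of the 11 granulocyte markers lay below log2 4 on every array, whereas 1 of 7 erythroid and 2 of 8 NK and T markers measured did. The part of these cells in the differences of the initiation factors was not tested.

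The TTP transgene was set against its absence in both Myc states. In TTP over wild type 0 members and 0% of all genes passed in limma, and 0 members had an unadjusted p under 0.05, where 0.224% of all genes were higher and 1.22% lower by that measure. The median of the members was 0.01, against -0.06 over all genes. Eif4a2 had -0.19 ± 0.09, Eif4enif1 -0.14 ± 0.14 and Eif1b -0.13 ± 0.11, the 3 members with the smallest p, each with an adjusted p of 1. In MycTTP over Myc 0 members and 0% of all genes passed, and 9 members had an unadjusted p under 0.05, all higher, where 18.2% of all genes were higher and 0.885% lower by that measure. The median of the members was 0.26, close to the 0.27 over all genes. All 3 MycTTP arrays lay above Myc in 21 members (53.8%), against 32.3% of all genes. Markers of other cells had positive medians in the same comparison, 2.21 for granulocyte, 1.88 for erythroid and 1.55 for NK and T markers, with 0 called, and their part in the members' differences was not tested. Eif2d had 0.51 ± 0.15, Eif2b4 0.46 ± 0.14 and Eif3e 0.26 ± 0.08, with adjusted p of 0.178, 0.178 and 0.18. When arrays were set to a common median, the median of the members in MycTTP over Myc was -0.01 and that of all genes 0.01.

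The average TTP difference, over both Myc states, had 0 members and 0% of all genes called by limma. There were 4 members with an unadjusted p under 0.05, 3 higher and 1 lower, where 4.87% of all genes were higher and 0.797% lower by that measure. The median was 0.12, against 0.10 over all genes. Eif2b4 had 0.26 ± 0.10, Eif2d 0.25 ± 0.10 and Eif4a2 -0.16 ± 0.07, each with an adjusted p of 0.814. The interaction subtracts TTP over wild type from MycTTP over Myc, and likewise had 0 members and 0% of all genes called. Its median was 0.27 for the members and 0.34 for all genes, and 5 members had an unadjusted p under 0.05, all higher, where 12.8% of all genes were higher and 0.369% lower by that measure. Eif2d had 0.51 ± 0.21, Eif3h 0.28 ± 0.11 and Eif1b 0.34 ± 0.15, with adjusted p of 0.362, 0.367 and 0.379. The median interaction of the members was -0.05 with arrays at a common median, so its sign depends on the scaling.

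Genes around the initiation factors were counted in the average Myc difference, where 18.7% of all genes rose and 24.6% fell. Of 7 tested genes for termination and recycling, 6 rose, among them Mrrf, a mitochondrial ribosome recycling factor, by 1.14, Gspt1, for release factor eRF3, by 0.80, Abce1, which splits ribosomes, by 0.77 and Etf1, for release factor eRF1, by 0.72. Of 14 elongation genes 8 rose and 1 fell, with a median of 0.48. Tsfm, a mitochondrial elongation factor, rose by 1.07 and Dohh, which completes the hypusine of eIF5A, by 0.92, while Eef2k, the kinase that inhibits elongation factor 2, had -0.50. Of 13 further genes that act on initiation, a list that mixes helpers with inhibitors, 5 rose and 1 fell. Bzw2 had 1.05, Larp1, a binder of the 5′ end of ribosomal protein mRNAs, 0.90 and Dap -0.94. The 2 genes tested for mitochondrial initiation did not pass. Without TTP 3 and wild type 3, where 24.1% of all genes rose and 37% fell, 6 genes for termination and recycling rose and 0 fell. In that fit 10 elongation genes rose and 1 fell, 7 genes of the mixed initiation list rose and 2 fell, and 1 mitochondrial initiation gene rose.

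The counts of regulators called were close to the shares of all genes or below them. Of 10 genes for eIF2 kinases, their partners and the eIF2 phosphatase, 1 rose and 2 fell in the average Myc difference, where 18.7% of all genes rose and 24.6% fell. Gcn1, the activator of the kinase GCN2, rose by 0.82, whereas Eif2ak3, for the kinase PERK, had -0.82 and Ppp1r15a, for the stress-induced phosphatase subunit GADD34, had -0.93. Of 13 genes for mTOR and MNK signalling, 2 rose and 3 fell. Deptor, an mTOR inhibitor, rose by 1.01 and Akt1s1, another, by 0.40. Mknk1, a kinase of eIF4E, had -0.47, Mtor -0.44 and Rps6kb2, an S6 kinase, -0.42. Without TTP 3 and wild type 3, 3 genes of the eIF2 kinase list rose and 3 fell, and 2 genes of the signalling list rose and 5 fell, beside 24.1% and 37% of all genes. In Myc over wild type with all arrays, 5 of the 59 genes tested in these translation and regulator lists passed, all lower (8.47%), which is near the 10.6% of all genes called lower there. They were Dap at -1.27, Eif2ak3 at -1.04, Mtor at -0.83, Rps6kb2 at -0.78 and Eef2k at -0.63.

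Promoters were read because many of the members moved together. RefSeq windows of 300 bases on GRCm38.p6, 250 before and 50 after the annotated start, were found for 31 of the 40 members. Each was searched for CACGTG, the E-box that Myc and its partner Max bind, which reads the same on both strands, and for CCGGAAG on either strand, a match to ETS-family motifs. These motifs are different letters, and no match of one overlapped with one of the other in the windows printed here. CACGTG was found in 8 of 31 members (25.8%), against 8.09% of all genes with a window. It was in 2 of 17 called members, Eif4e and Eif4a1, and in 6 of 13 tested members that were not called, namely Eif1b, Eif3a, Eif3f, Eif3k, Eif4h and Eif5a2. CCGGAAG was found in 13 of 31 members (41.9%), against 9.93% of all genes, in 9 of the 17 called and 4 of the 13 not called. Both shares of all genes come from 27025 genes with a window, not limited to those tested here. Of the members with a window, all but Eif4a3 were tested. The shares among tested genes were not counted, so neither motif is shown to be particular to initiation factors. A match is a description of letters and not a bound site.

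The windows of 4 members are shown, both called genes that hold CACGTG and, for comparison, 2 of the genes that hold it and were not called, each 5′ to 3′ on the strand of the gene with CACGTG in capitals. They are Eif4e, in one of its 2 windows, at chr3:138527018-138527317 on the plus strand, Eif4a1 at chr11:69672374-69672673 on the minus strand, Eif3f at chr7:108934165-108934464 on the plus strand and Eif5a2 at chr3:28781027-28781326 on the plus strand.
Eif4e: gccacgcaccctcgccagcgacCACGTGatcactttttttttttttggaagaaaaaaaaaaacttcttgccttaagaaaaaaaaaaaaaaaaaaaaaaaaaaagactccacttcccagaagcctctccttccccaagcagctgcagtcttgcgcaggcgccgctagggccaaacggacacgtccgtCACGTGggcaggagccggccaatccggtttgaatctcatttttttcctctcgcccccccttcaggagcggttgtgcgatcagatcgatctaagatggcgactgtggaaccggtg
Eif4a1: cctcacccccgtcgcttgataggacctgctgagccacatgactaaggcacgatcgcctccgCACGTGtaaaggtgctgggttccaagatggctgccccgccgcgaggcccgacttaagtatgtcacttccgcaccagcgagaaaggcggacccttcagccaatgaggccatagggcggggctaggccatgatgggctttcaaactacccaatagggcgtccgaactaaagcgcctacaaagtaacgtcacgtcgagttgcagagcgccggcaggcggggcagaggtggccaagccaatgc
Eif3f: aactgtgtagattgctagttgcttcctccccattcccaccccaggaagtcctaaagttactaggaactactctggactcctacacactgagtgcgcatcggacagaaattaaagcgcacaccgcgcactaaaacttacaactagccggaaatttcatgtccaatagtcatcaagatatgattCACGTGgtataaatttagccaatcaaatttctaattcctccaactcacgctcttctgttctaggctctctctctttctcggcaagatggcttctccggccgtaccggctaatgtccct
Eif5a2: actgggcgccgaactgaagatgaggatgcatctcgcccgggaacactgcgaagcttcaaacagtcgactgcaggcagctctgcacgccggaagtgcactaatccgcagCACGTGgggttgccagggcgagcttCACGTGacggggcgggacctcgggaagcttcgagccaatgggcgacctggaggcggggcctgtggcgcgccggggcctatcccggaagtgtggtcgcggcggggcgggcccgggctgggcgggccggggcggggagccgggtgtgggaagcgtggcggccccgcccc
The first base of CACGTG lay at -228 and -64 from the start in Eif4e, at -189 in Eif4a1, at -68 in Eif3f and at -142 and -117 in Eif5a2. Eif4e and Eif4a1 rose in the average Myc difference, by 0.58 and 0.42. Eif3f, with -0.08 ± 0.07, and Eif5a2, with 0.42 ± 0.19, did not pass.

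The choice of probe set was examined for all members. There were 30 members with several probe sets, and 56 further probe sets of 27 of them lay above the floor. Of these 56, 49 had an average Myc difference of the same sign as the chosen one and 7 the opposite sign, and without TTP 3 and wild type 3 these counts were 50 and 6. The size of the difference depended more on the probe set, since 18 further probe sets of 12 members had the same sign and over 1.5 times the chosen difference. For the called members 25 of 28 had the same sign. The 3 others had low levels, and they were a second probe set of Eif6 at -0.26, one of Eif4e2 at -0.04 and one of Eif4ebp1 at -0.05. With the probe set of largest SD in place of that with the highest mean, Eif1ax had 0.13 (adjusted p 0.694) and Eif5 0.46 (adjusted p 0.0976), and neither passed. With that choice Eif5b, not called before, passed with 0.62 (adjusted p 0.0247).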

How the data were processed

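Per the submitters' processing notes, the authors used GCRMA, a method that removes background, scales the arrays to each other and merges probes into probe sets, and the deposited values are intensity on a linear scale, as the values show. After that normalization a change in total RNA per cell cannot be seen. Per the labels, each of the 12 arrays is a biological replicate, and p-values measure the spread between these samples.

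Log2 of the deposited intensity was fitted with limma 3.58.1 in R 4.3.3 (lmFit, eBayes with an intensity trend), with 4 group means, 8 residual degrees of freedom and no covariate, on 10287 genes above log2 4 on at least 3 arrays. Tests were two-sided with Benjamini-Hochberg adjustment over those genes, called at 0.05, and all adjusted p-values come from this fit unless another setting is named. Errors beside differences are SE of the fit. Symbols come from the platform annotation, which gave 34958 probe sets a single symbol, 932 several and 9211 none, updated through RefSeq. The fitting procedure was also run on simulated data with independent noise on each array. That setting does not cover correlated arrays or arrays unlike their labels, so it does not speak for the calls made here.

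Values on every array are given for a set list of core factors and for the members with the smallest p in each contrast. The members, lists and tests were chosen with earlier results of these data known. Same-numbered TTP and wild-type arrays had residuals correlated at 0.498, 0.664 and 0.821, above 0.1, though the labels state no pairing and arrays 1 and 2 also correlated across numbers (0.512 and 0.433). Other group pairs had at least 1 correlation below 0. Alternatives were filters, probe set choice, scaling, a replicate block, a pseudocount, the groups in the fit and arrays left out. The counts of the other lists and of probe set signs without wild type 3 and TTP 3 were added after seeing the data.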

Additional observations from a re-analysis of the deposited data

How the results depend on the processing

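Counts here are of members called in either direction. The 21 members called in the average Myc difference, all higher, became 20 with no filter, where Eif4a1 no longer passed (adjusted p 0.0507). They were 25 with quantile normalization, 27 with arrays at a common median and 31 without all 4 arrays numbered 3. Without wild type 3 and TTP 3 they were also 31, with 29 higher and 2 lower. Calls over all genes moved there as well, from 18.7% to 24.1% higher and from 24.6% to 37% lower. Shares of all genes are not given for the other settings, so these counts are not a result about the members alone. Leaving out each array in turn gave 12 (without wild type 2) to 29 (without wild type 3), with 13 without Myc 1 and 14 without any 1 of wild type 1, TTP 1, TTP 2 and Myc 2. In Myc over wild type the range was 0 to 20, with 20 without wild type 3, 8 without TTP 3 (5 higher, 3 lower) and 3 without Myc 3. In MycTTP over TTP it was 0 to 22, with 22 without wild type 3 and 20 without TTP 3. In TTP over wild type, MycTTP over Myc, the average TTP difference and the interaction it was 0 to 0. Without wild type 3 and TTP 3, 25 members were called in Myc over wild type (22 higher, 3 lower) and 25 in MycTTP over TTP, all higher. Without the 4 arrays numbered 3 these counts were 26 and 26, with 3 in MycTTP over Myc (Eif2d, Eif2b5 and Eif4e3) and 1 in the average TTP difference (Eif4e3). With only the groups compared, 2 members were called in Myc over wild type, Eif4ebp1 higher and Eif4e3 lower. The 22 calls in MycTTP over TTP without wild type 3 came with unchanged differences, since that array enters only the shared spread there. The cause of the shifts in these counts was otherwise not tested.

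With the replicate number as a block, 21 members were again called in the average Myc difference, the same genes, with 0 in each other contrast, and no other call of a named member changed. With the probe set of largest SD, Eif1ax had -0.05 in Myc over wild type, Eif3e -0.34 in MycTTP over Myc and Eif3h -0.25 in the interaction. At a common median, Eif1b had 0.02 in the average Myc difference, Eif3e 0 in MycTTP over Myc and Eif3h -0.05 in the interaction. These 6 values changed sign or went to 0. As reported, the median of all genes was -0.21 in Myc over wild type, 0.27 in MycTTP over Myc and 0.34 in the interaction. Quantile normalization moved it to 0.04, 0.05 and 0.04, with members' medians of 0.36, 0.10 and 0.11, and the common median to 0.05, 0.01 and 0.01, with members' medians of 0.49, -0.01 and -0.05. The means of the 39 tested members lay above log2 4 in every group. The filter had already selected genes above log2 4, so this cannot show whether signal level limited the differences. That question was not tested.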
